A study of Mus musculus with 7 samples.

Results

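The core genes of necroptosis and of the death-inducing TNF complex were followed in sorted Paneth cells (PCs) of the mouse small intestine. The group is a list of 10 gene symbols with known roles in these pathways, drawn up with earlier results of these data known, and each symbol was matched to its Ensembl identifier in the count table. They are Ripk1, Ripk3, Zbp1, Mlkl, Tradd, Fadd, Casp8, Cflar, Birc2 and Birc3, 10 of the 55414 genes in the table. All 10 passed the filter on low counts and were among the 14329 genes tested. C57BL/6J mice had received either PBS, the control, or TNF, and PCs were purified on a cell sorter after 15 h. The PBS group holds 3 libraries and the TNF group 4 libraries, each from a separate mouse per the series text. Neither the TNF dose, the age and sex of the mice, the sorting markers nor any batch is stated in the labels.

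When TNF binds TNF receptor 1, the adaptor TRADD and the kinase RIPK1 gather at the receptor, where the ubiquitin ligases cIAP1 (Birc2) and cIAP2 (Birc3) attach ubiquitin chains that favour NF-kB signalling over death. If these chains are lost, RIPK1 joins FADD and caspase-8 in a cytosolic complex that can start apoptosis, and cFLIP (Cflar) binds caspase-8 and limits this step. If caspase-8 is blocked, RIPK1 and RIPK3 pair through a short shared stretch, the RIP homotypic interaction motif (RHIM), and RIPK3 phosphorylates MLKL, which then breaks the cell membrane. This lytic death is called necroptosis, and ZBP1, a sensor of Z-form nucleic acids that also carries RHIMs, can start it without a death receptor. In the intestinal epithelium, loss of caspase-8 or FADD is known to lead to the loss of PCs by necroptosis in mice. These measurements are of RNA, whereas the steps above act on proteins.

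Total counts ran from 15511455 to 19193721 per library. Levels are CPM, counts relative to the library size after TMM scaling (trimmed mean of M-values), and a gene is called changed at an edgeR adjusted p under 0.05. The summed level of 9 PC markers, Lyz1 and Defa24 among them, was 187356 to 311691 CPM in the PBS libraries and 175700 to 322573 CPM in the TNF libraries. Of these markers, Pla2g2a and Mmp7 were called higher (log2 fold changes 1.90 and 0.88), Mptx2 was called lower (-1.07) and the other 6 were not called. The 15 leukocyte markers summed to 25.4 to 33.5 CPM after PBS and 28.7 to 33.8 CPM after TNF. Of these, 6 could be tested, 2 were called higher and 1 lower, and Cd3e and Tyrobp were at 0 in every library. The neutrophil genes S100a9 and Ly6g had 0 counts after PBS and 399 and 233 counts after TNF, whereas the pan-leukocyte gene Ptprc went from 11.4 to 26.2 CPM down to 6.25 to 12.7 CPM and Lyz2, Itgam and Cd68 were not called. The 9 stromal and endothelial markers summed to at most 0.448 CPM in any library. Markers of other epithelial cells had lower sums in every TNF library than in any PBS library, which held for tuft cells (1394 to 2305 CPM after PBS, 264 to 674 after TNF), stem cells (3467 to 4785, 1971 to 2717), enterocytes (651 to 816, 303 to 376) and goblet cells (11300 to 20705, 9440 to 10976). All 6 tuft markers and 5 of 6 stem cell markers were called lower. Of 7 tested enterocyte markers, 5 were lower (Apoa1, Apoa4, Sis, Fabp2 and Vil1) and 1 was higher (Slc5a1), and Vil1 made up most of the sum. Of 8 goblet markers, 4 were lower (Fcgbp, Tff3, Clca1 and Zg16), 1 was higher (Spdef) and Muc2, Spink4 and Agr2 were not called, with Fcgbp at 1885 to 4458 CPM after PBS and 44.6 to 86.5 CPM after TNF. Enteroendocrine markers summed to 17.3 to 74.1 CPM after PBS and 11.6 to 20.1 CPM after TNF, and 3 of 8 were called lower (Chgb, Neurog3 and Sst) and 0 higher. The part of these cells in the results on the death genes was not tested. In bulk RNA, fewer cells of a type and less RNA per cell cannot be told apart.

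Of the 10 genes, 6 were higher after TNF (Birc3, Mlkl, Ripk3, Casp8, Ripk1 and Zbp1), 2 were lower (Fadd and Cflar) and 2 were not called (Tradd and Birc2). Over all genes tested, 29.5% were called higher and 30.1% lower, 59.6% in all, so being called is common in these data. The 8 called genes were also those whose TNF libraries lay wholly above or wholly below the PBS libraries, which held for 60.7% of all genes tested. The median log2 fold change of the 10 genes was 0.86, against 0.0017 over all genes tested. Birc3, Mlkl and Ripk3 lay high in that distribution, since 97.3%, 96.7% and 96.6% of all tested genes had a lower log2 fold change.

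**Figure D1:**
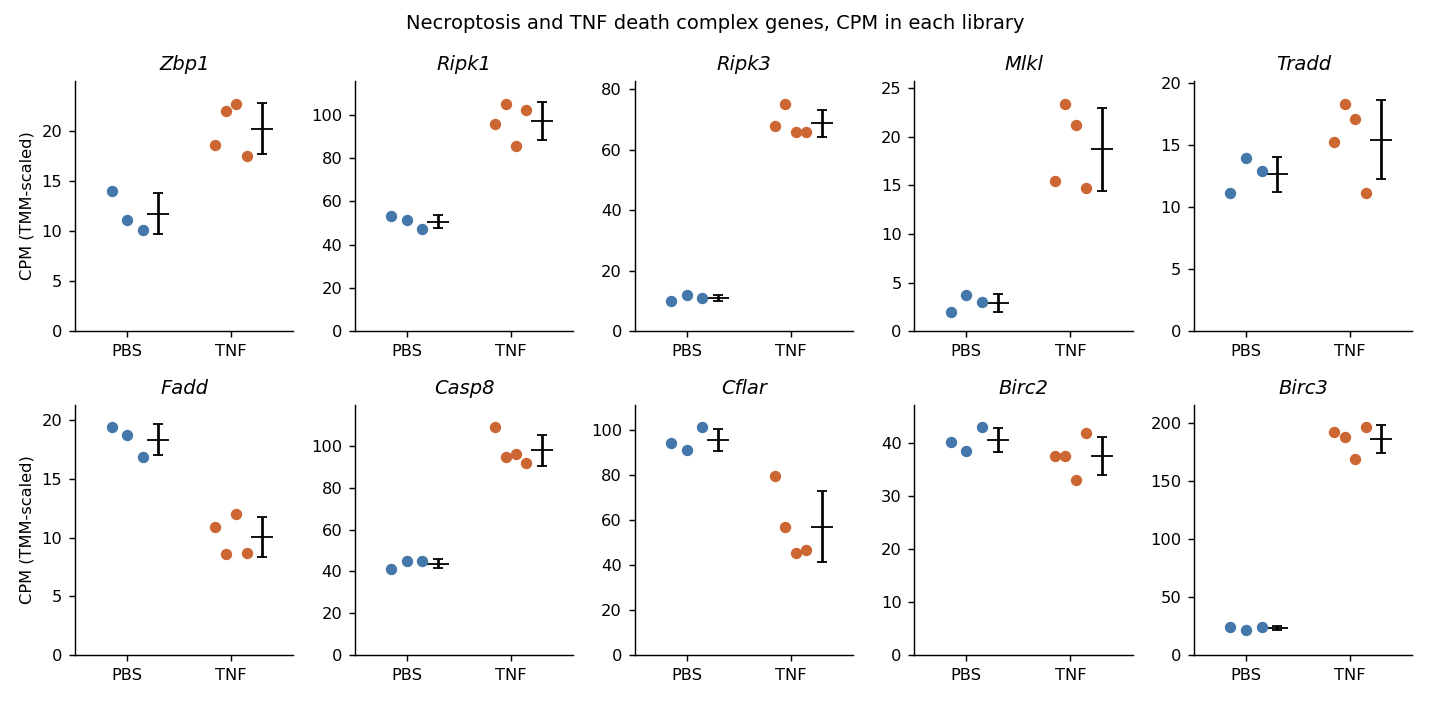
CPM (vertical axis, from 0, own scale per gene) of each of the 10 genes in the 3 PBS and 4 TNF libraries. Points are libraries, and the black mark beside them is the mean with its SD; Ripk3, Mlkl and Birc3 show wide gaps between the groups, whereas Tradd and Birc2 overlap.

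The RNA of the kinase and of the executor of necroptosis both rose. After PBS, Ripk3 was near the middle of all tested genes in CPM (42.3% of them were lower) and Mlkl was lower in that order (23.5%). Ripk3 (ENSMUSG00000022221, GRCm39 chromosome 14, 56022452 to 56026324), the kinase that activates MLKL, had 10.1, 12.1 and 10.9 CPM in the PBS libraries and 67.9, 75.1, 65.7 and 65.7 CPM in the TNF libraries. The groups were far apart and the libraries of each group close together. Ripk3 rose 6.2-fold, or 2.63 ± 0.12 on the log2 scale, where the error is the SE as for every change given here (edgeR adjusted p = 8.43e-10).

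Mlkl (ENSMUSG00000012519, chromosome 8, 112036296 to 112065168), the pore-forming executor, had 1.98, 3.77 and 3.02 CPM after PBS, from only 32, 74 and 57 counts. It reached 15.5, 23.4, 21.2 and 14.7 CPM after TNF. The lowest TNF library was well above the highest PBS library, although Mlkl varied more within groups than Ripk3 did, with a coefficient of variation of 30.8% after PBS and 22.8% after TNF. Its rise was 6.33-fold (log2 fold change 2.66 ± 0.25, edgeR adjusted p = 8.32e-07).

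The 2 other RHIM genes rose by less. Ripk1 (ENSMUSG00000021408, chromosome 13, 34186141 to 34221130), the kinase shared by the survival, apoptosis and necroptosis branches, had 53.3, 51.2 and 47.2 CPM after PBS and 95.8, 105, 85.3 and 102 CPM after TNF. This is a 1.92-fold rise (log2 fold change 0.94 ± 0.11, edgeR adjusted p = 4.69e-06) with no overlap of the groups. Zbp1 (ENSMUSG00000027514, chromosome 2, 173033815 to 173060724), the nucleic acid sensor, had 14, 11.1 and 10.1 CPM after PBS and 18.6, 22, 22.7 and 17.5 CPM after TNF. Every TNF library was again above every PBS library, but the gap was narrow. The rise of Zbp1 was 1.72-fold (log2 fold change 0.79 ± 0.16, edgeR adjusted p = 0.000919).

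In the caspase-8 arm the genes went different ways. Casp8 (ENSMUSG00000026029, chromosome 1, 58834375 to 58886665), the protease that starts apoptosis and restrains necroptosis, had 41.4, 44.9 and 44.9 CPM after PBS and 109, 95, 96.1 and 92 CPM after TNF. It rose 2.24-fold (log2 fold change 1.16 ± 0.10, edgeR adjusted p = 4.15e-07), and its spread was the smallest of the 10 genes in the PBS group (coefficient of variation 4.69%).

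Fadd (ENSMUSG00000031077, chromosome 7, 144131055 to 144136211), the adaptor that brings caspase-8 into the complex, moved the other way. It had 19.4, 18.8 and 16.9 CPM after PBS and 10.9, 8.61, 12 and 8.7 CPM after TNF. All TNF libraries were below all PBS libraries, with a log2 fold change of -0.87 ± 0.16 (edgeR adjusted p = 0.000442), so that Fadd was 1.82-fold lower.

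Cflar (ENSMUSG00000026031, chromosome 1, 58750321 to 58798047), the caspase-8 inhibitor, also fell. Its PBS libraries had 94.3, 91 and 101 CPM and its TNF libraries 79.6, 56.6, 45.1 and 46.7 CPM. TNF replicate 1 was nearest to the PBS group, and the coefficient of variation was 27.9% in the TNF group against 5.1% in the PBS group. Cflar was 1.67-fold lower, with a log2 fold change of -0.74 ± 0.17 (edgeR adjusted p = 0.00208), or -0.95 without TNF replicate 1. Counts per gene do not separate the long and short forms of cFLIP.

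Tradd (ENSMUSG00000031887, chromosome 8, 105984883 to 105996354), the adaptor that binds TNF receptor 1, had 11.1, 13.9 and 12.9 CPM after PBS and 15.2, 18.3, 17.1 and 11.1 CPM after TNF. TNF replicate 4 lay level with the lowest PBS library and the other 3 TNF libraries lay above it. The log2 fold change of 0.29 ± 0.18 was not called (edgeR adjusted p = 0.197), and its 95% interval from -0.11 to 0.68 leaves room for a rise of moderate size.

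The 2 cIAP genes, which are neighbours on chromosome 9, differed in their change. Birc3 (ENSMUSG00000032000, 7845790 to 7873229) encodes cIAP2, and NF-kB is known to induce it. It had 24.4, 21.4 and 24.3 CPM after PBS and 192, 188, 169 and 196 CPM after TNF. This was the largest rise of the 10 genes, 7.96-fold (log2 fold change 2.99 ± 0.11, edgeR adjusted p = 2.33e-10). Birc2 (ENSMUSG00000057367, 7818227 to 7837120), which encodes cIAP1, had 40.3, 38.5 and 43 CPM after PBS and 37.7, 37.6, 33.1 and 42 CPM after TNF. The ranges overlapped, and the log2 fold change of -0.11 ± 0.11 was not called (edgeR adjusted p = 0.416). The 95% interval from -0.35 to 0.13 does not reach the change of Birc3 (2.75 to 3.24).

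**Figure D2:**
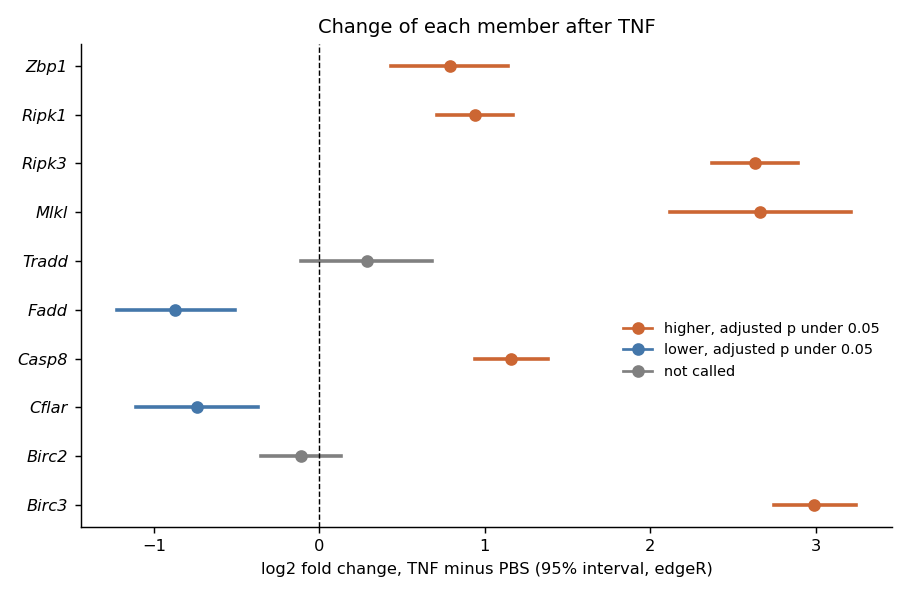
Log2 fold change of each gene, TNF minus PBS (horizontal axis), with its 95% interval from edgeR; orange marks a call of higher, blue a call of lower and grey no call. Birc3, Mlkl and Ripk3 form a group above 2, whereas Fadd and Cflar lie below 0 and the intervals of Tradd and Birc2 cross it.

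Sequence before the start site is shown for Birc3 and its neighbour Birc2, which was not called, and for Ripk3, because the first and last of these had large rises. RefSeq windows (GRCm38.p6) were found for 8 of the 10 genes, 10 windows in all, and not for Zbp1 and Tradd. The 250 bases before each start were searched on both strands for 3 motifs. These were GGG and CC with any 5 bases between them, a loose form of the NF-kB site, a pair of GAAA with any 2 bases between them, the core of the interferon-stimulated response element (ISRE), and TTCNNNGAA, the gamma-activated sequence (GAS) bound by STAT factors. The stretch from 250 to 31 bases before the start is printed 5′ to 3′ on the strand of the gene, with a motif match in capitals. All 3 genes are on the minus strand.
Birc3 (chr9:7873201-7873420): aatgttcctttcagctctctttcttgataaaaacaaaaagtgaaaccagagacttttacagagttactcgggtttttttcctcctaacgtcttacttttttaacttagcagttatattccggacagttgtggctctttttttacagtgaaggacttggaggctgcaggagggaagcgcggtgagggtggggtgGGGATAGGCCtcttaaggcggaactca
Birc2 (chr9:7837088-7837307): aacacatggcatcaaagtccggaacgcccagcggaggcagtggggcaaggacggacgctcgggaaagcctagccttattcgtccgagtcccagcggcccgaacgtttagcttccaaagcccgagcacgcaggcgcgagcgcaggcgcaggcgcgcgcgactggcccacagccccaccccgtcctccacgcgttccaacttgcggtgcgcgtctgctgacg
Ripk3 (chr14:55788888-55789107): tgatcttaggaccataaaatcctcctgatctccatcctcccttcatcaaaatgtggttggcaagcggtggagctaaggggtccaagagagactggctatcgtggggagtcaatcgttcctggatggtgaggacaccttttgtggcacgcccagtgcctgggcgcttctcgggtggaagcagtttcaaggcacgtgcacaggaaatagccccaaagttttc

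The Birc3 window held 1 match to the NF-kB form, the letters GGGATAGGCC from 57 to 48 bases before the start, whereas both Birc2 windows and the Ripk3 window held none. In base content the printed stretches differed, with 44.1% G and C for Birc3, 53.2% for Ripk3 and 67.3% for Birc2. The other match to this motif was in the second of 2 Ripk1 windows, which also held TTCCCGGAA, a match to TTCNNNGAA, at 2 places. No window held the ISRE core. The loose NF-kB form is common and is found in 45.8% of all 32851 RefSeq windows, while the GAS form is found in 7.02% and the ISRE core in 2.98%. These matches describe letters in a short window and do not show binding.

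To compare levels between genes, CPM was divided by the summed length of annotated exons in kilobases. On this scale Casp8 was highest after PBS (14.2 ± 0.666 CPM per kb, SD, n = 3), and Mlkl lowest (0.505 ± 0.155). In between, Cflar (6.59), Birc2 (6.22), Tradd (5.48), Fadd (4.69), Ripk1 (4.6) and Ripk3 (4.36) formed a run in which each neighbour overlapped the next. Zbp1 (2.74) and Birc3 (2.69) followed and also overlapped each other.

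After TNF the order changed. Casp8 (31.8 ± 2.37 CPM per kb, SD, n = 4), Ripk3 (27.1 ± 1.76) and Birc3 (21.4 ± 1.38) led without overlap between neighbours, and were well above Ripk1 (8.82 ± 0.784). From Ripk1 down through Tradd (6.68), Birc2 (5.77), Zbp1 (4.71), Cflar (3.94), Mlkl (3.22) and Fadd (2.57), each neighbour overlapped the next. Ripk3 thus moved from place 7 to place 2, while Fadd moved from place 5 to place 10. The order depends on the length used, and the next values use a length chosen after the data were seen. With the length of the canonical transcript, Ripk3 (36.2), Casp8 (35.7) and Birc3 (32.2) overlapped after TNF, and Cflar (13.6) was closer to Casp8 (16) after PBS. On that length Ripk3 moved from place 7 to place 1, and Fadd only from place 8 to place 10.

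**Figure D3:**
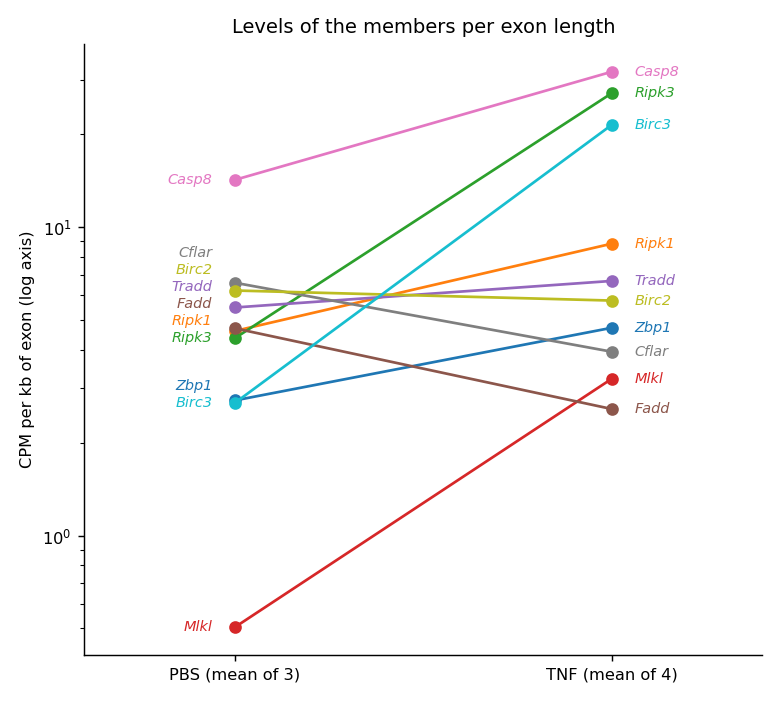
Mean level of each gene in CPM per kb of exon (log axis) in the 3 PBS and the 4 TNF libraries, joined by a line per gene. Ripk3, Birc3 and Mlkl rise steeply from 4.36, 2.69 and 0.505, whereas the lines of Cflar and Fadd go down and cross those of Ripk1 and Zbp1.

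Ratios between members of the same library do not depend on how libraries are scaled. Their level does depend on the length used for each gene, here that of all annotated exons, whereas their change between the groups does not. Of 8 ratios, 5 differed between the groups. With 35 possible assignments of the labels to the 7 libraries, the exact two-sided permutation test gave each of these 5 a p of 0.0286, the smallest it can give, and 0.0457 after adjustment over the 8 ratios. These ratios restate the changes of single genes given above and are not separate support for them. Casp8 rose while Cflar and Fadd fell, each without overlap of the groups, so the ratios of Cflar and Fadd to Casp8 had to separate.

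The balance of the cIAP genes changed most. The ratio of Birc3 to Birc2 was 0.454, 0.418 and 0.424 in the PBS libraries and 3.82, 3.75, 3.82 and 3.5 in the TNF libraries. It was below 1 in every PBS library and above 1 in every TNF library, an 8.61-fold change.

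The RNA of the RHIM kinases shifted towards Ripk3. The ratio of Ripk3 to Ripk1 was 0.826, 1.02 and 1.01 after PBS and 3.08, 3.12, 3.35 and 2.8 after TNF. The ratio of Ripk3 to Casp8 rose as well, from 0.298, 0.327 and 0.296 to 0.761, 0.962, 0.833 and 0.869. These are changes of 3.25-fold and 2.78-fold, with no overlap of the groups.

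The RNA of both partners of caspase-8 fell relative to that of Casp8. The ratio of Cflar to Casp8 was 0.486, 0.431 and 0.478 after PBS and 0.156, 0.127, 0.1 and 0.108 after TNF. The ratio of Fadd to Casp8 was 0.369, 0.329 and 0.297 after PBS and 0.0787, 0.0713, 0.0987 and 0.0745 after TNF. On the log2 scale the differences were -1.94 and -2.04, so that the mean ratios after TNF were 0.261 and 0.243 of those after PBS.

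Other ratios did not pass the test. Mlkl to Ripk3 was 0.0853 to 0.136 after PBS and 0.0975 to 0.141 after TNF, a log2 difference of 0.06 (exact permutation p = 0.886, adjusted 0.886). Zbp1 to Ripk1 had a log2 difference of -0.15 (exact permutation p = 0.343, adjusted 0.392). Tradd to Ripk1 was lower in every TNF library (0.516 to 0.956) than in any PBS library (0.994 to 1.31), but its log2 difference of -0.67 did not pass (exact permutation p = 0.0571, adjusted 0.0762).

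**Figure D4:**
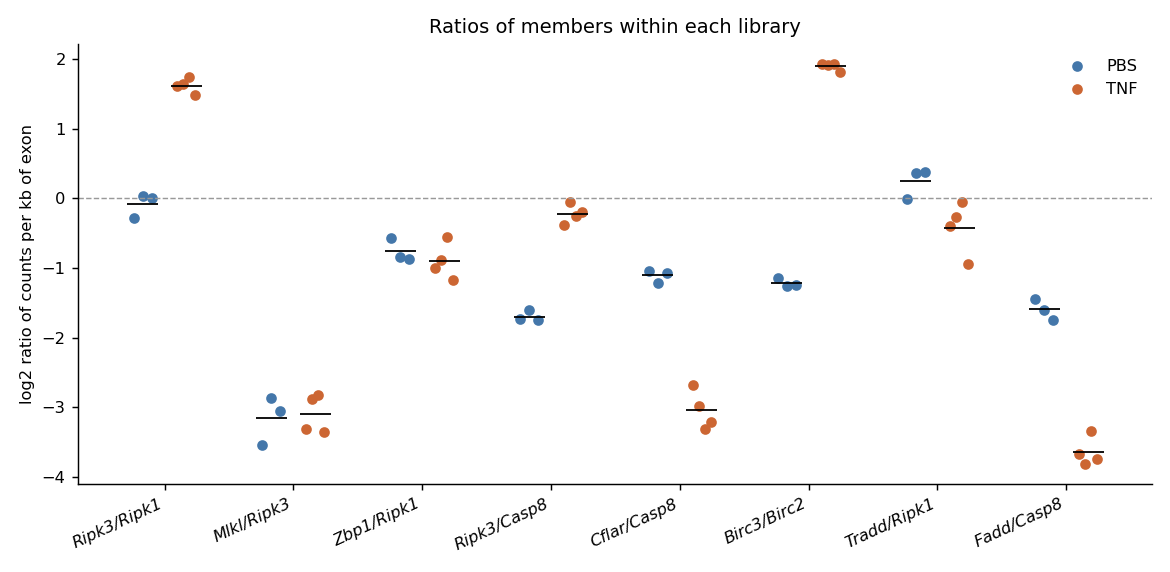
Log2 ratio of counts per kb of exon between pairs of genes (vertical axis) in each PBS and TNF library; points are libraries and black lines group means. Birc3/Birc2 crosses from below 0 to above 0, Cflar/Casp8 and Fadd/Casp8 drop by about 2, and Mlkl/Ripk3 overlaps between groups.

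Around these 10 genes, 59 further genes with known roles in the pathway were taken in 5 lists, also drawn up with earlier results of these data known, and 58 of them were tested. After TNF, 39 were higher, 4 were lower and 15 were not called, with a median log2 fold change of 0.60. Over all genes tested, 29.5% were higher and 30.1% lower, with a median of 0.0017, and the counts of each list stand against these shares.

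In the list of TNF receptor complex partners, which holds the receptor, proteins that join TRADD and RIPK1 there and others that act on the pathway, such as Mapkapk2 and Xiap, 12 of 18 genes were higher and 1 was lower (median log2 fold change 0.61). Tbk1, a kinase that phosphorylates and restrains RIPK1, had 36.4 ± 2.7 CPM after PBS and 106 ± 9.08 CPM after TNF (mean ± SD), a change of 1.54 ± 0.11 on the log2 scale (edgeR adjusted p = 5.79e-08). Ikbkb, which encodes the IKK kinase that also phosphorylates RIPK1, rose by 1.38 ± 0.12 on the log2 scale (edgeR adjusted p = 2.99e-07). Tab1, a partner of the kinase TAK1, was the exception and had a log2 fold change of -1.35 ± 0.15 (edgeR adjusted p = 4.18e-06).

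Of 5 deubiquitinases and adaptors that act on the complex, 3 were higher and 0 lower. Tnfaip3, which encodes A20, rose from 15.4 ± 0.922 to 349 ± 37.8 CPM (4.50 ± 0.13 on the log2 scale, edgeR adjusted p = 3.65e-11). Its partner Tnip1 rose from 26.2 ± 4.89 to 150 ± 10.6 CPM (2.51 ± 0.14, edgeR adjusted p = 4.45e-09).

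Among 8 tested receptors, ligands and adaptors that feed the complex, 6 were higher and 1 was lower (median log2 fold change 1.92), while Fasl was too low to be tested. Tnf itself rose from 1.48 ± 0.474 to 93.1 ± 14.7 CPM (5.97 ± 0.21 on the log2 scale, edgeR adjusted p = 1.62e-10). Fas, the receptor of FAS ligand, rose from 4.56 ± 0.762 to 35.5 ± 7.84 CPM (2.96 ± 0.20, edgeR adjusted p = 3.6e-08). Ticam1, the RHIM adaptor of TLR3 and TLR4, had a log2 fold change of -0.39 ± 0.14 (edgeR adjusted p = 0.0305). It was not called when any of 4 libraries was left out, PBS replicate 1 (-0.32), PBS replicate 2 (-0.37), TNF replicate 3 (-0.33) and TNF replicate 4 (-0.36).

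Downstream of caspase-8, 6 of 10 genes were higher and 2 lower (median 0.44), where 59.6% of all tested genes were called in either direction. Dffb, which encodes a nuclease of apoptosis, and Apaf1, the core of the apoptosome, rose by 1.69 ± 0.19 and 1.30 ± 0.15 on the log2 scale (edgeR adjusted p = 4.74e-06 and 7.75e-06). The caspase substrate gene Parp1 went from 73.2 ± 6.36 to 25.6 ± 5.61 CPM (-1.52 ± 0.16, edgeR adjusted p = 2.2e-06). Casp6, an executioner caspase gene, went from 48.1 ± 6.84 to 24.9 ± 3.22 CPM (-0.95 ± 0.14, edgeR adjusted p = 3.68e-05).

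Of 17 genes for MLKL chaperones, inositol phosphate kinases and membrane repair, 12 were higher and 0 lower (median 0.60). Flot2, a flotillin gene, rose from 21.2 ± 0.459 to 131 ± 14.8 CPM (2.63 ± 0.12 on the log2 scale, edgeR adjusted p = 8.32e-10). Chmp4b, a subunit of the ESCRT-III complex that repairs membranes, rose from 86.9 ± 16 to 342 ± 65.9 CPM (1.98 ± 0.18, edgeR adjusted p = 8.36e-07).

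**Figure D5:**
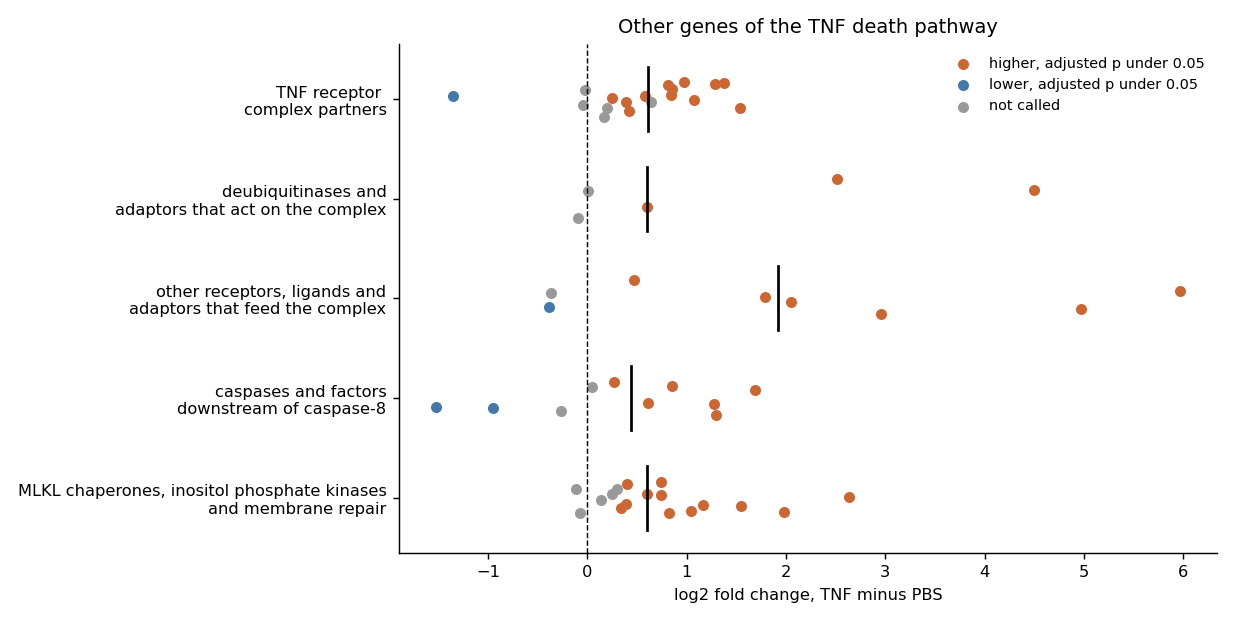
Log2 fold change, TNF minus PBS (horizontal axis), of the 58 tested genes in the 5 pathway lists. Points are genes (orange higher, blue lower, grey not called, vertical scatter only for legibility) and black lines list medians; only 4 genes are blue, and Tnf (5.97) is farthest to the right.

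Overlapping genes limit some of these counts, because strand use is not known. Ripk1 shares 241 bases of exon (2.19%) with Serpinb6a on the opposite strand, which had 4505 counts after PBS and 28985 after TNF (log2 fold change 2.35, edgeR adjusted p = 1.24e-08), and its part in the rise of Ripk1 was not tested. Fadd shares 239 bases with Faddos, which had 0 counts in all libraries, as did Gm17084, a pseudogene that shares 511 bases with Ripk1. Tradd shares 61 bases with Hsf4 and 6 bases with Fbxl8, and neither was called (edgeR adjusted p = 0.793 and 0.06). Antisense RNAs that share 672 bases with Mlkl and 339 bases with Fadd were not analysed here. Ripk3, Zbp1, Casp8, Cflar, Birc2 and Birc3 share no exon bases with another annotated gene. Gm37760, on the strand of Casp8, and Phaf1, opposite Tradd, overlap the spans of these genes but share no exon bases with them. Both were higher after TNF (log2 fold changes 1.66 and 0.41, edgeR adjusted p = 0.00137 and 0.0353), and their part in the counts was not tested.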

How the data were processed

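The authors deposited raw counts, whole numbers of reads per Ensembl gene with 1 column per library. The submitters' processing notes name FastQC, Trimmomatic 0.39, STAR 2.7.10a and DESeq2 and the builds mm10 and mm39, without saying which build gave the table. How reads were counted, with which annotation and whether by strand, is not given in the sources used here. Identifiers were matched to GENCODE M39 (54749 of 55414, 98.8%), so coordinates are those of the annotated gene in GRCm39. Depth was 15511455 to 19193721 counts per library.

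TNF was compared with PBS over all 7 libraries, without covariates, by the two-sided quasi-likelihood test of edgeR 4.0.16 in R 4.3.3 (filterByExpr, TMM, robust fit, Benjamini-Hochberg over 14329 genes). The fit was tested on simulated data, where it found nearly all 4-fold changes but missed many 2-fold changes. It fell short of the first pass rule set for all changes, and the rule was then relaxed, so a gene that was not called may still have changed by 2-fold or less. Standard errors and 95% intervals come from the fitted change and its F statistic. Ratios were taken per kb of exon and compared by exact permutation. Alternatives were other scalings, filters, DESeq2 1.42.0, a replicate block, a 2-fold minimum and leaving out each library. The canonical transcript length was added after the data were seen. The members and lists were chosen with earlier results of these data known. Named were all members, and in each pathway list up to 2 called genes with the largest rise and up to 2 with the largest fall of those whose mean over the libraries reached 10 CPM. For Ripk3, Mlkl and Zbp1, the 3 genes with the most similar profile were also named, leaving out symbols of Gm with a number, those ending in Rik and Ensembl identifiers. Genes of the count table that share exon bases with a member were named too.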

Additional observations from a re-analysis of the deposited data

How the results depend on the processing

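The calls of Ripk1, Ripk3, Zbp1, Mlkl, Casp8, Birc3, Fadd and Cflar and the lack of a call for Tradd and Birc2 held in all 14 fits with another scaling, filter, test, block or set of libraries, with no change of direction. With a required 2-fold change, 4 members were higher and 0 lower, and 19 pathway genes were higher and 2 lower. That rule removes smaller changes by construction. How many of all tested genes pass the 2-fold rule was not counted, so whether these numbers are unusual was not tested. Without TMM scaling, the median log2 fold change over all genes went to -0.163, and Birc2 then had -0.29 and Tradd 0.12. Pathway genes then numbered 30 higher and 5 lower, against 3142 higher and 4614 lower over all genes (4229 and 4314 with TMM). With the replicate number as a block, in which TNF replicate 4 has no partner and adds nothing, 6 members were higher and 2 lower, 34 pathway genes were higher and 4 lower, and 7131 genes were called against 8543, with Ticam1 not called (adjusted p = 0.0946 by edgeR). The numbers do not mark pairs, since same-numbered libraries deviated with correlations of -0.299, -0.0314 and -0.174. Leaving out any library kept the direction of the 5 ratios that passed, with Birc3/Birc2 at 3.08 to 3.14 on the log2 scale. Without 1 library the ratio test cannot reach 0.05. That libraries are separate mice rests on the series text, and intervals do not cover batch.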

Other observations

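Profiles (log2 of CPM + 0.5) over the 7 libraries were compared with those of 8532 genes whose mean reached 10 CPM. Genes with a symbol of Gm and a number, one ending in Rik or only an Ensembl identifier were passed over in naming the nearest. Of the rest, Parp14, Relb and Zcchc9 were most like Ripk3, with Pearson correlations of 0.9996, 0.9991 and 0.9990. Mlkl was nearest to Zfp513 (0.9981), Parl (0.9973) and Ciapin1 (0.9958), and Zbp1 to Ramac (0.9958), Ablim1 (0.9939) and Rnf220 (0.9900). The points share 2 groups that differ for most genes, and 1626 genes reached 0.95 with Ripk3, 939 with Mlkl and 206 with Zbp1, so these values describe a profile that many genes have.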
